A study of Mus musculus with 24 samples.

Results

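Tmem215, Vldlr, Ndnf, Nrsn2 and Eya4 were 5 of the 55376 genes counted by bulk mRNA sequencing in blood stem and progenitor cells of mice that overexpress tristetraprolin (TTP, encoded by Zfp36). They were chosen from the deposited values themselves, as genes outside the immune families with the largest changes between middle-aged TTPΔARE and wild-type hematopoietic stem cells (HSCs) and with no overlap between the libraries of both genotypes. Vldlr and Tmem215 were the lower genes of the set, and Ndnf, Nrsn2 and Eya4 the higher ones. The values of middle-aged HSCs are therefore a description, and the question put to the data is whether young HSCs and young multipotent progenitors of type 3 (MPP3), whose libraries had no part in the choice, show the same differences.

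The 24 libraries came from untreated bone marrow of male mice. TTPΔARE mice are homozygous for a deletion of the AU-rich element in the 3′ UTR of Zfp36, carried in the germline and so present in every cell and not only in blood, and the controls are their wild-type (WT) littermates. HSCs (LSK CD34- Flk2- CD150+ by the sort of the study) were taken from young mice, with 4 Y-WT and 4 Y-TTPΔARE libraries, and from middle-aged mice, with 5 M-WT and 3 M-TTPΔARE libraries. MPP3 cells, a myeloid-biased progenitor downstream of the HSC, were taken from young mice only, with 4 libraries of each genotype. The labels spell the genotype TTPdeltaARE in the titles and TPPdeltaARE in another field. They do not say whether the libraries of a group came from separate animals, so p-values measure the spread between these libraries. The MPP3 libraries form a set of their own, as do the middle-aged ones, so that an effect of cell type or of age cannot be told apart from one of the library set.

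TTP is an RNA-binding protein that attaches to AU-rich elements in the 3′ UTR of its target mRNAs and recruits the machinery that shortens their poly(A) tail, after which they decay. Its own mRNA carries such an element, and loss of that element stabilizes the mRNA and raises the amount of the protein. The genes described here are not from one pathway. Vldlr encodes the very-low-density lipoprotein receptor, which binds apolipoprotein E-rich particles and also reelin. Tmem215 encodes a transmembrane protein. Ndnf encodes neuron-derived neurotrophic factor, a secreted glycoprotein. Nrsn2 encodes neurensin 2, a membrane protein of vesicles known mainly from neurons. Eya4 belongs to the eyes-absent family of phosphatases and co-activators that work with homeobox transcription factors and is best known from hearing loss.

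The genotype labels were checked on Zfp36, whose level is given in CPM (counts scaled to a common library size, with TMM factors over all libraries). It lay between 32.5 and 69.2 CPM in Y-WT and between 85.4 and 105.4 CPM in Y-TTPΔARE HSCs. It lay between 41.6 and 60.4 CPM in M-WT HSCs and reached 105.6 CPM in M-TTPΔARE HSCs. In MPP3 cells the range was 20.5 to 38.4 CPM in WT and 81.7 to 124.5 CPM in TTPΔARE. Every TTPΔARE library was thus above every WT library of its own age and cell type, but by edgeR's quasi-likelihood test the difference passed in MPP3 (log2 fold change 1.80, adjusted p = 6.5e-04) and middle-aged HSCs (0.97, adjusted p = 0.0020) and not in young HSCs (0.96, adjusted p = 0.238). In young HSCs it passed by DESeq2 (adjusted p = 7.4e-04), without the low-count filter (adjusted p = 0.0349) and without Y-WT replicate 1 (adjusted p = 0.0419). Total counts ran from 24261371 to 39934554 per library. All 11 HSC markers looked at were detected, 8 of them were lower in MPP3 than in HSCs of young WT mice, where 7.69% of all genes tested were called lower and 22.2% called either way, and 8 of 10 markers of granulocyte-monocyte progenitors were higher there.

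Since TTP acts through AU-rich sequence, the annotated 3′ UTRs of the 5 genes were searched for the pentamer ATTTA and for the heptamer TATTTAT, on the transcript strand only and with pentamers inside heptamers counted in both. The windows that hold a heptamer are printed 5′ to 3′ with the heptamer in capitals, from GENCODE M21 transcripts on GRCm38, because they show which of the genes carry the longer form:
Tmem215, first heptamer: gtttttaaaaTATTTATtcacactgat
Tmem215, second heptamer: cagcactacaTATTTATcatttattag
Vldlr, the only heptamer: ctaaaaaggaTATTTATaattaaaaca
Ndnf, the only heptamer: tttattagtcTATTTATtaatgtatat
The Tmem215 windows are at chr4:40475333-40475359 and chr4:40476503-40476529 on the plus strand, starting the heptamer 711 and 1881 bases after the stop codon. The Vldlr window is at chr19:27251432-27251458 on the plus strand, 2302 bases after the stop codon, and the Ndnf window at chr6:65707219-65707245 on the plus strand, 2784 bases after it. No heptamer was found in the 3′ UTRs of Nrsn2 and Eya4, and the nonamer TTATTTATT was found in none of the 5.

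Long 3′ UTRs often hold such letters, so each count was read beside that of genes with a 3′ UTR within 20% of the same length. Tmem215 held 11 pentamers in 2536 bases, where 94.1% of 2265 such genes held at least 1 and their median was 4, and 48.3% of them held a heptamer. Vldlr held 12 pentamers in 5091 bases, beside a median of 9, and 67.1% of such genes held a heptamer. Ndnf held 17 pentamers in 7881 bases, beside a median of 14, and 82.8% of such genes held a heptamer. Eya4 held 7 pentamers in 3245 bases, beside a median of 5. Nrsn2, with a 3′ UTR of 746 bases, held no pentamer, whereas 63.3% of 2309 genes of its length did. A lower gene, Tmem215, and a higher gene, Ndnf, thus both carried heptamers, and a match of letters is a description of the annotation, not a site of binding.

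**Figure D1:**
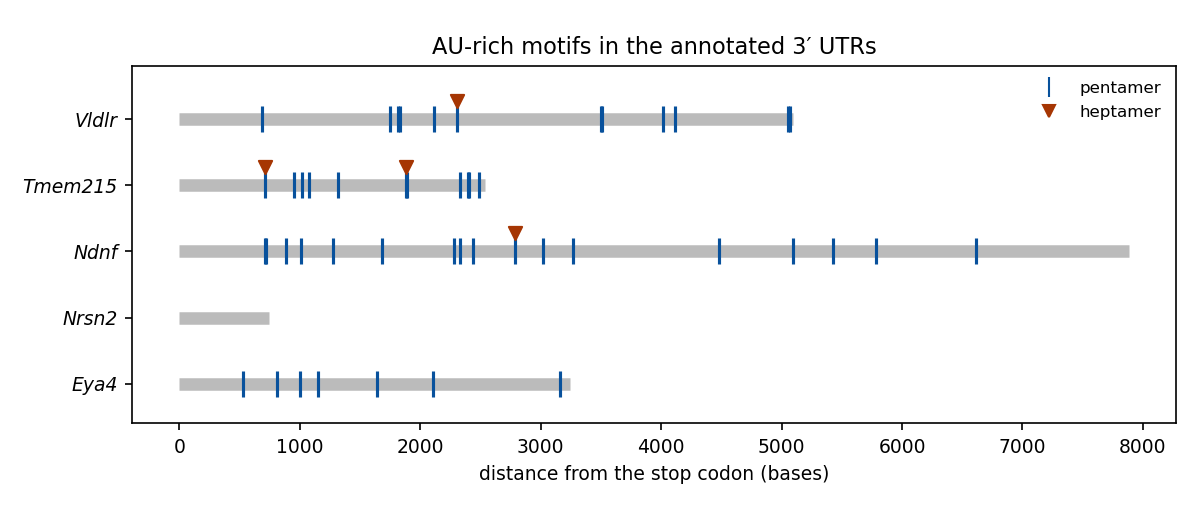
Positions of AU-rich motifs along the annotated 3′ UTR of each gene (x axis, bases from the stop codon; grey bar, whole 3′ UTR; blue ticks, pentamers; brown triangles, heptamers). Pentamers are spread along the 3′ UTRs of Vldlr, Tmem215, Ndnf and Eya4, Tmem215 holds 2 heptamers, and the short 3′ UTR of Nrsn2 holds no motif.

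Vldlr (ENSMUSG00000024924.14) lies on the plus strand of chromosome 19 (GRCm38, chr19:27216484-27254231). In HSCs of middle-aged mice its level was 95.8, 64.5, 148.5, 50.6 and 67.5 CPM in the M-WT libraries. The M-TTPΔARE libraries had 17.1, 15.0 and 8.22 CPM. Every M-TTPΔARE library was well below the lowest M-WT library, and the fitted log2 fold change was -2.72 (SE 0.37). It had rank 3 among the 145 genes that met the limits of a call and were lower in M-TTPΔARE HSCs without overlap. Tmem215 and the complement gene C4b came before it.

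In young HSCs Vldlr was at 10.5, 69.8, 42.1 and 16.6 CPM in the Y-WT libraries. The Y-TTPΔARE libraries had 8.40, 9.82, 12.5 and 18.0 CPM. The Y-WT libraries fell apart into 2 high ones (replicates 2 and 3) and 2 low ones (replicates 1 and 4), and the low ones overlapped with the TTPΔARE libraries. The log2 fold change was -1.57 (SE 0.52, 95% interval -2.72 to -0.42), with an adjusted p of 0.442 by edgeR's quasi-likelihood test, so the difference did not pass. A log2 fold change below -1 was common in this comparison and was reached by 15.5% of the 24381 genes tested. Without Y-WT replicate 2 the value was -0.97, with an adjusted p of 0.894 by edgeR.

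In MPP3 cells Vldlr was at 50.6, 133.6, 83.5 and 65.7 CPM in the WT libraries. The TTPΔARE libraries had 26.3, 36.3, 35.8 and 43.6 CPM. The genotypes did not overlap, with every TTPΔARE library below the lowest WT library, and 4.91% of the 19023 genes tested were lower without overlap in the same comparison. The log2 fold change was -1.28 (SE 0.28, 95% interval -1.91 to -0.66), and the adjusted p was 0.0513 by edgeR's quasi-likelihood test, just short of the threshold. By DESeq2 the value was -1.29 with an adjusted p of 2.5e-04, without the filter on low counts it was -1.28 with an adjusted p of 0.0028, and without WT replicate 1 it was -1.50 with an adjusted p of 0.0205, all of which pass. Without WT replicate 2, which had the highest level, it was -0.94 with an adjusted p of 0.0818 by edgeR. The adjusted p by edgeR was 0.0506 with RLE scaling and 0.129 with all 24 libraries in one fit. With the replicate number as a block it was 0.0302. Of 8 edgeR fits with a library left out, 1 passed, and the highest adjusted p was 0.205.

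Vldlr was thus lower in TTPΔARE in each of the 3 comparisons by its estimate, and the effect in MPP3 differed from that in young HSCs by 0.16 on the log2 scale (95% interval -1.14 to 1.46, adjusted p = 0.950 by edgeR), an interval that leaves room for a large difference either way. In WT libraries Vldlr averaged 34.7 ± 27.1 CPM in young HSCs, 85.4 ± 38.9 CPM in middle-aged HSCs and 83.3 ± 36.1 CPM in MPP3 (SD, n = 4, 5 and 4). MPP3 against HSC of young WT mice gave a log2 fold change of 1.26 (SE 0.54, adjusted p = 0.126 by edgeR), which rose to 1.82 with an adjusted p of 0.0394 without Y-WT HSC replicate 2. All of these levels come from bulk libraries, in which fewer cells that express a gene and less of its RNA per cell cannot be told apart.

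Tmem215 (ENSMUSG00000046593.3) lies on the plus strand of chromosome 4 (GRCm38, chr4:40472180-40477168). The M-WT libraries held 5.46, 3.79, 13.8, 3.12 and 3.82 CPM. The M-TTPΔARE libraries held 1.195, 0.537 and 0.556 CPM. All M-TTPΔARE libraries were below all M-WT libraries, with a log2 fold change of -3.03 (SE 0.56), and without M-WT replicate 3, by far the highest, it was -2.48.

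In young HSCs Tmem215 was at 0.210, 4.53, 3.27 and 1.30 CPM in Y-WT. In Y-TTPΔARE it had no count in replicate 1, which allows up to 0.08 CPM (3 counts), and 0.725, 1.22 and 1.45 CPM in the others. As for Vldlr, Y-WT replicates 2 and 3 stood high and the rest overlapped. The log2 fold change was -1.53 (SE 1.06, 95% interval -3.88 to 0.82, adjusted p = 0.717 by edgeR), and -0.97 without Y-WT replicate 2. In MPP3 the WT libraries held 1.41, 5.61, 3.12 and 0.933 CPM. The TTPΔARE libraries held 0.769, 0.119, 1.73 and 2.82 CPM. The groups overlapped, and the log2 fold change was -1.14 (SE 0.79, 95% interval -2.91 to 0.63, adjusted p = 0.596 by edgeR). Counts of Tmem215 in young libraries ran from 0 to 194, and both intervals are wide and hold 0. Without WT replicate 2 the value in MPP3 was -0.49.

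**Figure D2:**
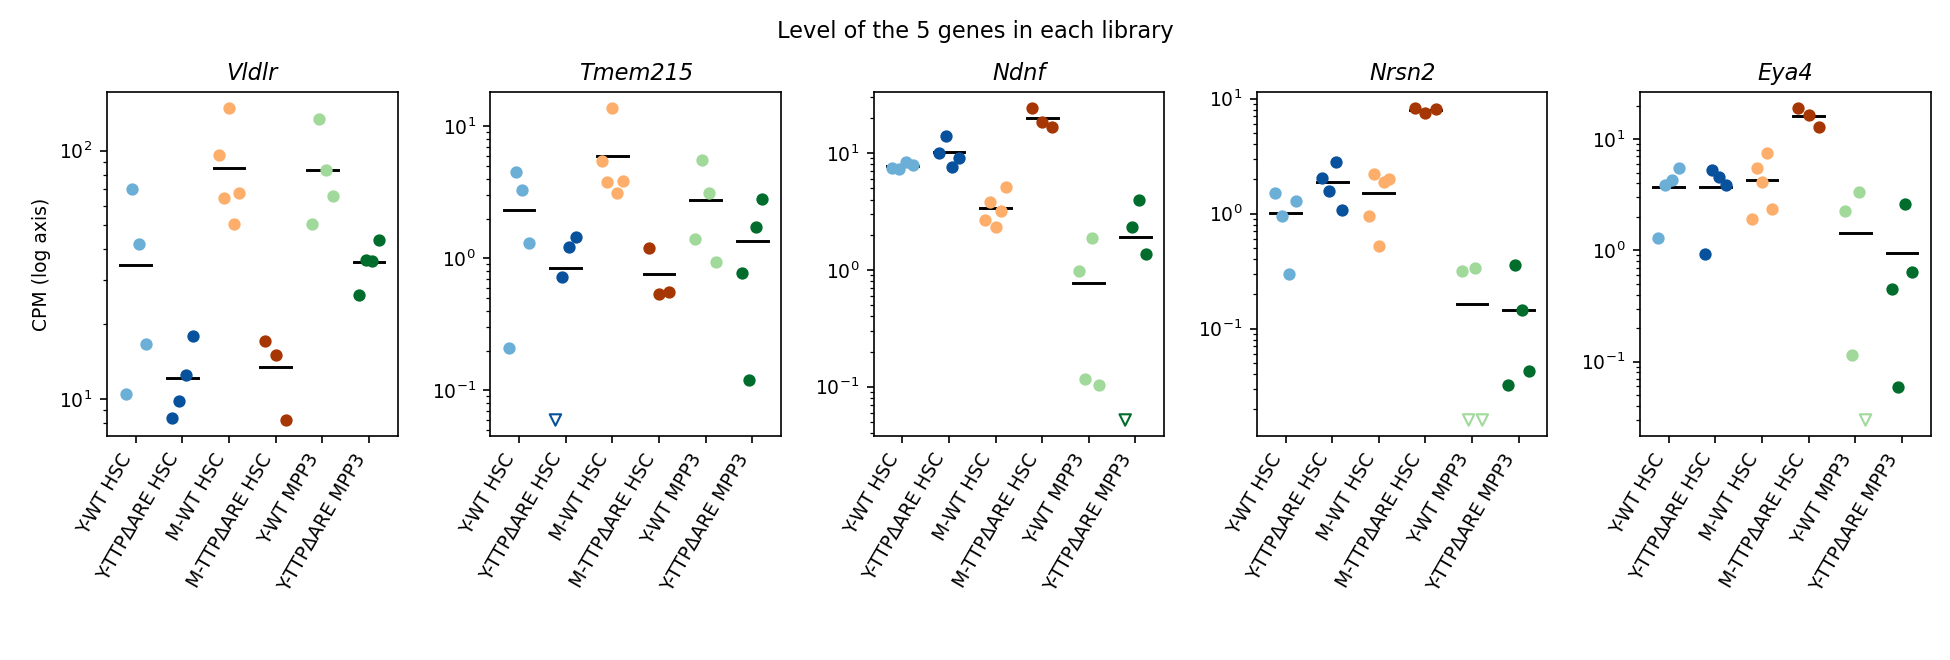
Level of each gene in each library (y axis, CPM on a log axis with its own range per gene; filled points, libraries in replicate order; open triangles, libraries without a count, drawn at the foot of the axis; black lines, group means). M-TTPΔARE HSCs lie below M-WT HSCs for Vldlr and Tmem215 and above them for Ndnf, Nrsn2 and Eya4, whereas among the young groups only Vldlr in MPP3 has genotypes that do not overlap.

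Vldlr and Tmem215, on different chromosomes, followed each other from library to library. By the root-mean-square difference of log2 CPM, after each gene was centred on its own mean over the 24 libraries, Vldlr was the closest of 13454 genes to Tmem215, at 1.10 against a spread of 1.73 of Tmem215 itself. Both were picked by one comparison, which pulls the middle-aged libraries together. Within groups, however, the libraries of Y-WT, Y-TTPΔARE and M-WT HSCs stood in the same order for both genes, and in the other 3 groups they did not. The ratio of Vldlr to Tmem215 in CPM was 12.8 to 49.9 in Y-WT, 10.3 to 13.5 in Y-TTPΔARE (3 libraries with a Tmem215 count), 10.8 to 17.7 in M-WT and 14.3 to 27.9 in M-TTPΔARE HSCs. In MPP3 it was 23.8 to 70.3 in WT and 15.4 to 305.1 in TTPΔARE, so the ranges of the cell types overlapped. The order was looked at after the values were seen. After Vldlr, the genes closest to Tmem215 were Spon1, at 1.39, and Arhgef28, at 1.42. The genes closest to Vldlr were Csf3r (0.803), the receptor of granulocyte colony-stimulating factor, the plexin Plxnb2 (0.892) and Cyb561 (0.939), against a spread of 1.25 of Vldlr itself.

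**Figure D3:**
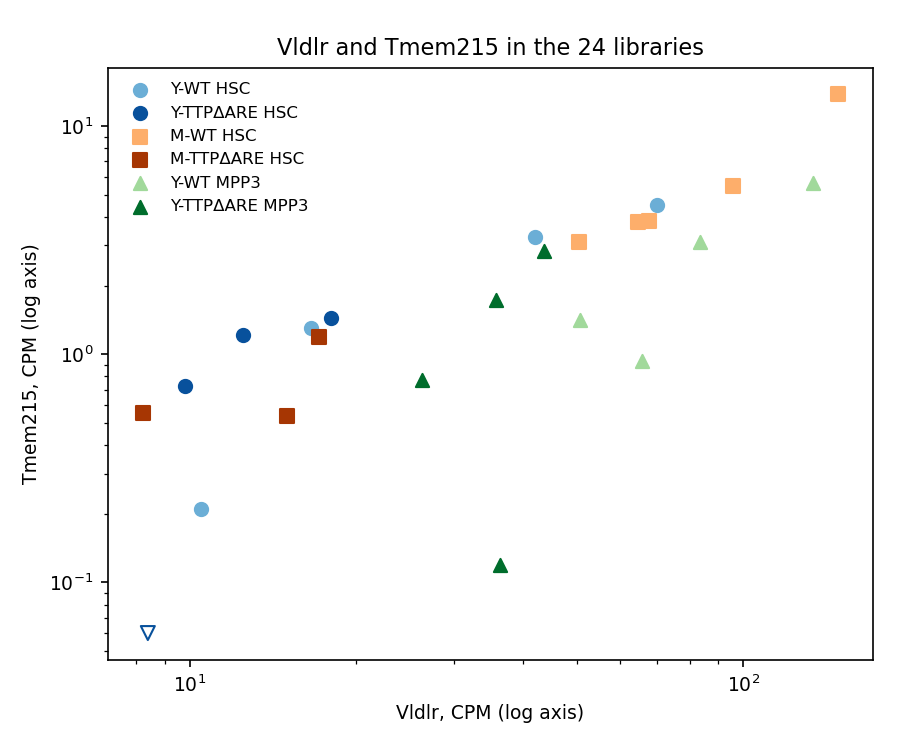
Tmem215 against Vldlr in the 24 libraries (both axes, CPM on a log axis; colour and shape, group; open triangle, the library without a Tmem215 count, drawn at the foot of the axis). The highest M-WT library has 148.5 CPM of Vldlr and 13.8 CPM of Tmem215, and the library without a Tmem215 count, of Y-TTPΔARE HSCs, has 8.40 CPM of Vldlr.

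Other signals moved with these 2 genes. Among Y-WT HSCs, the endothelial genes Cdh5, Flt4, Plvap and Stab2 together had 394.1 and 503.0 CPM in replicates 1 and 4, where Vldlr and Tmem215 were low, and 115.1 and 105.3 CPM in replicates 2 and 3, where they were high. In Y-TTPΔARE HSCs the same 4 genes, which were picked from a list of 14 endothelial markers, had 69.0 to 100.1 CPM. In middle-aged HSCs they had 18.4 to 40.5 CPM in M-WT and 5.22 to 14.7 CPM in M-TTPΔARE, lower without overlap as were Vldlr and Tmem215. In MPP3 they had 3.64 to 9.31 CPM in WT and 8.98 to 15.4 CPM in TTPΔARE. Over the whole list of 14 endothelial markers, none of which averaged under 1 CPM in young HSCs, the summed level was 889.8 to 1645.7 CPM in Y-WT and 904.2 to 1005.4 CPM in Y-TTPΔARE. In middle-aged HSCs the whole list overlapped, at 1206.5 to 1336.5 CPM in M-WT and 1070.8 to 1270.3 CPM in M-TTPΔARE. Outside the 4 picked genes, Cldn5 and Esam were lower there without overlap, and Egfl7 and Emcn higher. Of all genes tested there, 11.6% did not overlap. In MPP3, markers of granulocyte-monocyte progenitors summed to 534.5 to 1773.4 CPM in WT and 1409.1 to 2976.1 CPM in TTPΔARE. Of these 10, 3 were higher by the test, 7 had an unadjusted p under 0.05 by edgeR, and 1 averaged under 1 CPM in WT. Of all genes tested in MPP3, 1.71% were called and 12.1% had such an unadjusted p. In middle-aged HSCs, megakaryocyte markers summed to 386.0 to 417.4 CPM in M-WT and 210.0 to 254.2 CPM in M-TTPΔARE. Of these, the integrins Itga2b and Itgb3 were lower by the test, in a comparison where 1.41% of all genes tested were called. In either genotype 2 of the 8 markers averaged under 1 CPM. Other marker lists also separated the genotypes by their summed level. HSC markers were at 3712.9 to 4141.1 CPM in Y-WT and 4223.5 to 4319.3 CPM in Y-TTPΔARE HSCs. In middle-aged HSCs they were at 4418.2 to 5160.2 and 5196.3 to 5632.6 CPM. Of these 11 markers, 2 in young and 7 in middle-aged HSCs had an unadjusted p under 0.05 by edgeR. The shares over all genes tested were 7.38% and 16.0%. Granulocyte-monocyte progenitor markers were at 215.6 to 271.7 CPM in M-WT and 190.0 to 203.0 CPM in M-TTPΔARE. Of 8 tested, 1 reached that p. T and NK cell markers were at 78.5 to 95.4 CPM in Y-WT and 116.0 to 212.0 CPM in Y-TTPΔARE HSCs, with none of 8 called, 8 at an unadjusted p under 0.05 by edgeR and none averaging under 1 CPM. Neutrophil markers were at 6.02 to 13.9 CPM in M-WT and 3.14 to 4.56 CPM in M-TTPΔARE HSCs, with none of 5 tested called, 5 at an unadjusted p under 0.05 by edgeR, and 3 and 6 of all 7 averaging under 1 CPM. In MPP3, 3 lists separated the genotypes in this way. Megakaryocyte markers were at 155.2 to 171.5 CPM in WT and 99.4 to 106.9 CPM in TTPΔARE, with 1 of 6 called lower. Marrow stromal markers were at 66.1 to 126.0 and 31.1 to 59.6 CPM, with 1 of 5 called lower and 7 and 5 of all 9 averaging under 1 CPM. Erythroid markers were at 6.67 to 11.4 and 18.1 to 70.8 CPM, with 4 and 2 of 8 averaging under 1 CPM. Of the markers tested in these 3 lists, 2 of 6, 1 of 5 and 3 of 7 had an unadjusted p under 0.05 by edgeR. Reads of olfactory and vomeronasal receptor genes, summed over 1971 genes, had 61.4, 790.4, 983.1 and 597.0 CPM in Y-WT replicates 1 to 4 and 75.0, 338.2, 346.8 and 404.2 CPM in those of Y-TTPΔARE. They ordered the libraries as both Vldlr and Tmem215 did in Y-TTPΔARE HSCs, and in the other 5 groups they did not order them as both genes did. The part of these signals in the levels of Vldlr and Tmem215 was not tested.

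Few partners of Vldlr passed the test. Of the 12 other genes of the LDL receptor family, none passed in young HSCs (12 tested), MPP3 (11 tested) or middle-aged HSCs (12 tested), and their median log2 fold changes were -0.05, -0.00 and 0.14 beside -0.07, 0.04 and 0.01 over all genes tested. At an unadjusted p under 0.05 by edgeR there were 2, 3 and 6 of them, beside 7.38%, 12.1% and 16.0% of all genes tested in the same comparisons, shares that also stand behind the unadjusted counts of the lists that follow. Lrp10, the highest of them, averaged 189.9 ± 6.41 CPM in M-WT and 183.7 ± 10.6 CPM in M-TTPΔARE HSCs (SD, n = 5 and 3). Among 8 ligands and regulators of the receptor, none passed in young HSCs or MPP3, where 3 and 1 had an unadjusted p under 0.05 by edgeR. In middle-aged HSCs only Clu, which encodes clusterin (apolipoprotein J), passed, at 170.0 ± 31.5 CPM in M-WT and 60.3 ± 14.2 CPM in M-TTPΔARE, a log2 fold change of -1.55 (SE 0.17, adjusted p = 0.0020 by edgeR), with an adjusted p of 0.184 when all 24 libraries shared one estimate of the spread. Apoe averaged 669.2 ± 64.2 CPM in M-WT and 756.5 ± 4.35 CPM in M-TTPΔARE. None of 9 adaptors and kinases that act below the receptor passed in any of the 3 comparisons, with 3, 1 and 2 at an unadjusted p under 0.05 by edgeR in young HSCs, MPP3 and middle-aged HSCs.

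Ndnf (ENSMUSG00000049001.5) lies on the plus strand of chromosome 6 (GRCm38, chr6:65671590-65712326). The M-WT libraries had 2.66, 3.79, 2.32, 3.21 and 5.09 CPM. The M-TTPΔARE libraries had 24.4, 18.5 and 16.8 CPM. Each M-TTPΔARE library was more than 3 times the highest M-WT library. The log2 fold change of 2.49 (SE 0.23) had rank 1 among the 147 genes that met the limits of a call and were higher in M-TTPΔARE HSCs without overlap. Immunoglobulin and T-cell receptor segments were left out of the ranking, and genes below the limit on mean level were not ranked.

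In young HSCs Ndnf was at 7.39, 7.39, 8.40 and 7.89 CPM in Y-WT, the tightest group of the 5 genes in young cells. In Y-TTPΔARE it was at 10.1, 13.9, 7.64 and 9.14 CPM. The groups overlapped in replicate 3 of Y-TTPΔARE alone, and the log2 fold change was 0.35 (SE 0.18, 95% interval -0.05 to 0.74, adjusted p = 0.708 by edgeR). The M-WT libraries lay below all Y-WT libraries (6.72% of genes were lower without overlap between WT HSCs of both ages), and the M-TTPΔARE libraries above all Y-TTPΔARE libraries, which the choice of the gene helped to fix.

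MPP3 cells held little Ndnf. The WT libraries had 0.988, 0.116, 1.88 and 0.104 CPM, all below every Y-WT HSC library (12.7% of the genes tested were lower without overlap), and Ndnf was lower in MPP3 by a log2 fold change of -3.44 (SE 0.75, adjusted p = 0.0091 by edgeR). It was the only one of the 5 genes to pass there. Of the 22816 genes tested in that comparison, 22.2% were called either way and 7.69% called lower. Tmem215, Nrsn2 and Eya4 had a mean logCPM under the limit of 1.5 there and could not be called at any p. In TTPΔARE MPP3 Ndnf had no count in replicate 1, which allows up to 0.0962 CPM, and 2.32, 3.97 and 1.37 CPM in the others. The genotypes overlapped, with a log2 fold change of 1.37 (SE 1.24, 95% interval -1.39 to 4.13, adjusted p = 0.689 by edgeR). The genes closest to Ndnf over the 24 libraries were Tnfrsf25 (1.01), Scrn1 (1.03) and Magi1 (1.04), against a spread of 2.17.

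NDNF has been linked to signalling through FGF receptors, so these were looked at beside it. Of 7 receptors and co-receptors, none passed in young HSCs (6 tested, 3 at an unadjusted p under 0.05 by edgeR) or MPP3 (5 tested, 0 at that level). In middle-aged HSCs Fgfr1 alone of 6 passed, at 32.1 ± 2.15 CPM in M-WT and 22.0 ± 1.05 CPM in M-TTPΔARE, a log2 fold change of -0.60 (SE 0.08, adjusted p = 0.0069 by edgeR). Without M-TTPΔARE replicate 3 its adjusted p was 0.0547, and with all 24 libraries in one fit 0.397.

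Nrsn2 (ENSMUSG00000059361.6) lies on the minus strand of chromosome 2 (GRCm38, chr2:152368755-152376638). The M-WT libraries had 0.950, 2.22, 0.526, 1.88 and 2.01 CPM. The M-TTPΔARE libraries had 8.30, 7.57 and 8.06 CPM, which lie close together and far above. The log2 fold change was 2.35 (SE 0.34). The gene Gm14164 overlaps exons of Nrsn2 on the opposite strand, and the strand setting of the counting is not given in the sources used here, so reads of both genes cannot be told apart. Gm14164 was at 0.309 to 0.809 CPM in M-WT and 2.17 to 3.06 CPM in M-TTPΔARE, and rose by a log2 fold change of 2.41 (SE 0.34, adjusted p = 0.0070 by edgeR), below the limit on mean level for a call. Over the alternatives its adjusted p ran from 2.6e-07 to 0.326.

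In young HSCs Nrsn2 was at 1.52, 0.953, 0.297 and 1.30 CPM in Y-WT. In Y-TTPΔARE it was at 2.05, 1.57, 2.81 and 1.08 CPM. The groups overlapped, and the log2 fold change was 0.84 (SE 0.52, 95% interval -0.32 to 1.99, adjusted p = 0.717 by edgeR). In MPP3 the gene was near the limit of detection, with 9, 0, 10 and 0 counts in WT and 1, 12, 4 and 1 counts in TTPΔARE, that is at most 0.357 CPM, and it did not pass the filter for a test there. Counts of 0 in WT replicates 2 and 4 allow up to 0.0867 and 0.0778 CPM. Against HSCs of young WT mice the level in MPP3 differed by -2.75 on the log2 scale (SE 1.29, adjusted p = 0.158 by edgeR). Its relative Nrsn1 averaged at most 0.307 CPM in any group. The genes closest to Nrsn2 over the libraries were Chst2 (0.925), Gm10499 (0.934) and Pkhd1l1 (0.940), against a spread of 2.07.

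Eya4 (ENSMUSG00000010461.15) lies on the minus strand of chromosome 10 (GRCm38, chr10:23102963-23350786). The M-WT libraries had 1.90, 5.51, 4.16, 7.51 and 2.34 CPM. The M-TTPΔARE libraries had 19.1, 16.6 and 13.0 CPM. All M-TTPΔARE libraries were above all M-WT libraries, with a log2 fold change of 1.89 (SE 0.35).

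Young HSCs showed no such difference by their estimate. Eya4 was at 1.28, 3.85, 4.27 and 5.52 CPM in Y-WT. It was at 0.933, 5.32, 4.60 and 3.88 CPM in Y-TTPΔARE. Replicate 1 was low in both genotypes and the rest overlapped, and the log2 fold change was -0.08 (SE 0.51, 95% interval -1.22 to 1.06, adjusted p = 0.962 by edgeR). Its sign turned without Y-TTPΔARE replicate 1, at 0.30. In MPP3 the WT libraries had 2.26, 0.116, 3.38 and 0 CPM. The TTPΔARE libraries had 0.449, 0.0596, 2.60 and 0.642 CPM. The groups overlapped, with a log2 fold change of -0.57 (SE 1.37, 95% interval -3.63 to 2.50, adjusted p = 0.901 by edgeR), and 0.30 without WT replicate 3. The genes closest to Eya4 were the nuclear receptor gene Rorb (0.809), Synm (0.982) and Cpt1c (1.02), against a spread of 2.10.

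Eya4 was also set beside the reads of the receptor genes, which are typical of sensory neurons and together had 18.8 to 983.1 CPM per library. In M-WT and M-TTPΔARE HSCs and in WT MPP3 the libraries stood in the same order by Eya4 and by this sum, and in the other 3 groups they did not. The choice of Eya4 fixed that each M-TTPΔARE library exceeds each M-WT library, so pairs of middle-aged libraries with like sums are given as values. M-WT replicate 4 and M-TTPΔARE replicate 2 had 209.4 and 208.5 CPM of receptor genes, and 7.51 and 16.6 CPM of Eya4. M-WT replicate 2 and M-TTPΔARE replicate 3 had 85.8 and 88.3 CPM of receptor genes, and 5.51 and 13.0 CPM of Eya4, a ratio of 2.36. In WT MPP3 the receptor sum was 226.6, 20.0, 338.4 and 18.8 CPM, and Ndnf, Nrsn2 and Eya4 were each higher in replicates 1 and 3 than in replicates 2 and 4. The part of these reads in the levels of Eya4, Ndnf and Nrsn2 was not tested.

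**Figure D4:**
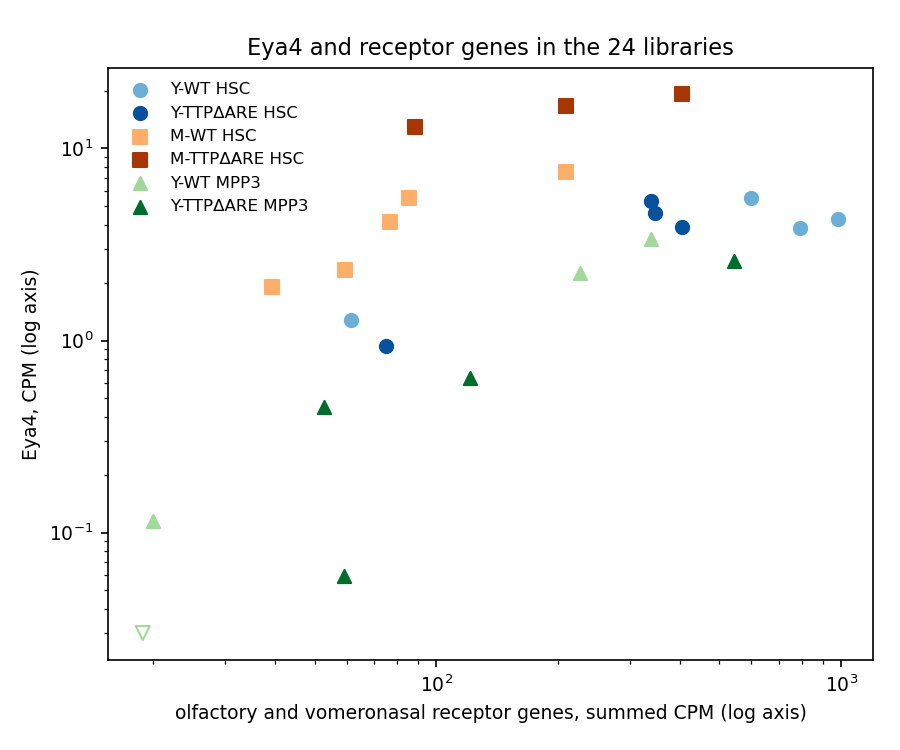
Eya4 against the summed level of olfactory and vomeronasal receptor genes in the 24 libraries (both axes, CPM on a log axis; colour and shape, group; open triangle, the library without an Eya4 count, drawn at the foot of the axis). The M-TTPΔARE libraries have 13.0 to 19.1 CPM of Eya4, as the choice of the gene fixes, and 1 of them, at 404.7 CPM of receptor genes, lies beyond the highest M-WT sum of 209.4 CPM.

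Other EYA genes had much higher levels than Eya4. Per kilobase of exon, Eya2 averaged 61.7 CPM, Eya1 12.3 CPM, Eya3 3.05 CPM and Eya4 0.455 CPM in M-WT HSCs, and Eya4 reached 1.72 CPM per kilobase in M-TTPΔARE. Of a list of 11 genes, the other EYA genes with their homeobox partners and the DACH genes, none passed in young HSCs (9 tested), MPP3 (7 tested) or middle-aged HSCs (8 tested), with 0, 3 and 2 at an unadjusted p under 0.05 by edgeR. Eya1 averaged 95.9 ± 6.17 CPM in M-WT and 123.2 ± 7.01 CPM in M-TTPΔARE, and Eya2 182.8 ± 15.9 and 208.2 ± 18.7 CPM, differences that did not pass. Eya1 and Eya3 were picked after their values were seen.

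Set side by side, none of the 5 genes was called in young HSCs, where 0.0246% of the genes tested were called, nor in MPP3, where 4 of the 5 were tested and 1.71% of genes were called. A call also needs a mean logCPM above 1.5. Tmem215 (0.83) and Nrsn2 (0.70) in young HSCs were below it, as were Tmem215 (0.93), Ndnf (0.34) and Eya4 (0.15) in MPP3. These could not be called at any p, and their adjusted p-values by edgeR were 0.717, 0.717, 0.596, 0.689 and 0.901. The study, using edgeR at the same limits without naming the test, reported many more genes changed in young HSCs. Among aging-related genes it listed Vldlr as lower there and gave no change for Tmem215 and Eya4. Vldlr alone had an unadjusted p under 0.05 by edgeR in young HSCs (0.0123) and in MPP3 (0.0011), and by DESeq2 none of the 5 passed in young HSCs and Vldlr alone in MPP3. In middle-aged HSCs, where 1.41% of genes were called, no test of the 5 is given because this comparison chose them. Their groups there did not overlap, as the choice required, beside 11.6% of all genes tested. The sign of the estimate in young HSCs was that of middle-aged HSCs for Tmem215, Vldlr, Ndnf and Nrsn2, and in MPP3 for Tmem215, Vldlr and Ndnf. The estimate in middle-aged HSCs minus that in young HSCs was -1.15 for Vldlr, -1.51 for Tmem215, 2.14 for Ndnf, 1.51 for Nrsn2 and 1.96 for Eya4 on the log2 scale, which is given without a test because the choice favoured large values in middle-aged cells. Between MPP3 and young HSCs the effect of TTPΔARE did not pass for any of the 5 genes, with adjusted p-values from 0.862 to 0.961 by edgeR, in a comparison where 0.429% of the 26337 genes tested were called.

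**Figure D5:**
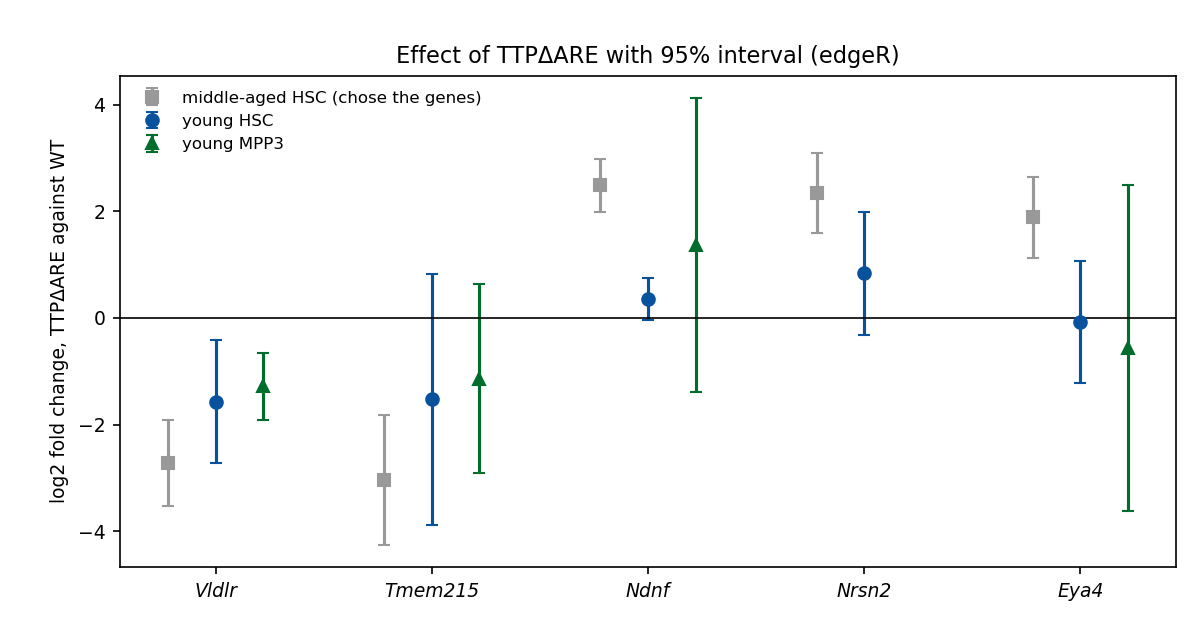
Log2 fold change of TTPΔARE against WT with its 95% interval (y axis) for each gene in middle-aged HSCs (grey, the comparison that chose the genes), young HSCs (blue) and young MPP3 (green). The young intervals lie below 0 for Vldlr, at -2.72 to -0.42 and -1.91 to -0.66, and include 0 for the other genes. Nrsn2 was not tested in MPP3.

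The order of the 5 genes by level also turned over with genotype in middle-aged HSCs, as their choice fixes in part. Per kilobase of exon, M-WT HSCs had 8.48 CPM of Vldlr, 1.26 of Tmem215, 1.04 of Nrsn2, 0.455 of Eya4 and 0.337 of Ndnf. M-TTPΔARE HSCs had 5.48 CPM per kilobase of Nrsn2, 1.96 of Ndnf, 1.72 of Eya4, 1.33 of Vldlr and 0.161 of Tmem215. Across the 6 groups, the M-TTPΔARE group stood first for Ndnf, Nrsn2 and Eya4 without overlap with the next group, whereas for Tmem215 the libraries of every group overlapped those of the next. For Vldlr the only gap between neighbours was that between WT MPP3 and TTPΔARE MPP3, the next in order.

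Eya4 and Vldlr lay close to the ranked genes just outside the set. Ndnf (2.49) and Nrsn2 (2.35) lay above the first higher gene ranked outside it, and Tmem215 (-3.03) below the first lower one. The genes ranked met the limits of a call and did not overlap. Among those higher in M-TTPΔARE HSCs, Gimap3, P2rx7, Ccl3 and Gimap7 stood between or after the members with log2 fold changes of 1.91, 1.75, 1.73 and 1.69. Abi3bp, at 1.45, followed them, beside 1.89 for Eya4. Among the lower genes, C4b (-2.74) and Lrg1 (-2.69) stood next to Vldlr, and Muc1 followed at -2.43.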

How the data were processed

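RNA was sequenced from 24 libraries of 6 groups. Per the labels and the study's methods, the authors trimmed reads with cutadapt, aligned them to mm10 with STAR and counted them per gene (GENCODE M22) with featureCounts, and the deposited values are raw counts per gene symbol, without normalization. Strand and multimapping settings are not given in the sources used here. The labels and the study's methods name different library kits, and which was used is not settled. The study left 1 TTPΔARE library out of the MPP3 comparison without saying which, and all were used here.

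Genes were kept by filterByExpr (minimum count 10, minimum total 15), scaled by TMM and tested with the quasi-likelihood F test of edgeR 4.0.16 in R 4.3.3, fitted over all genes of the groups compared, with Benjamini-Hochberg adjustment. Calls used the limits of the study, which does not name its edgeR test: mean logCPM above 1.5, fold change above 1.2 and adjusted p below 0.05. SEs were derived from the F statistic and intervals are at 95%. Counts from 24261371 to 39934554 per library set the precision, and the limit that a count of 0 allows (3 counts) covers counting error only. No pair of replicates agreed within sampling noise (chi-square per degree of freedom at least 22.5). Named genes were the 5 members, Zfp36, the 3 genes closest to each member, genes next to the members in rank, and pathway genes called in any genotype comparison or with the highest level (genes outside this rule are marked or belong to marker lists). Members and lists were chosen with earlier results of these data known. The scripts were tested on simulated counts. Coordinates and 3′ UTRs are from GENCODE M21 on GRCm38 (54510 of 55376 symbols found). Alternatives were DESeq2 1.42.0, RLE scaling, no filter, all libraries in one fit, the replicate number as a block, and each library left out in turn.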

Additional observations from a re-analysis of the deposited data

Results flagged for a closer look

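Tmem215 in the M-WT HSC library of replicate 3, at 13.8 CPM, stood apart from the other 4 M-WT libraries (3.12 to 5.46 CPM), with a gap to its nearest neighbour of 0.780 of the whole range. It was the only one of the 25 sets of values looked at in which 1 library stood so far out. By chance about 1 set in 20 does so, and 1 of 25 is no more than that. The same library had the highest Vldlr level of the series, 148.5 CPM. Without it, the log2 fold change between M-TTPΔARE and M-WT HSCs was -2.48 for Tmem215 and -2.44 for Vldlr.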

How the results depend on the processing

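Of 287 alternative values of the 5 genes with a test, 268 kept their direction and their side of the threshold, 12 changed sign and 7 newly passed. A gene with a mean logCPM under 1.5 cannot pass at any p, so the tally says little on such genes. In the main fit this held for Tmem215 and Nrsn2 wherever they were tested. It also held for Eya4 in all tested comparisons but that of young HSCs, and for Ndnf between the genotypes of MPP3. Of 120 values without a test (middle-aged HSCs by genotype, and WT HSCs by age), 118 kept their direction and 2 changed sign. Vldlr in MPP3 newly passed by DESeq2 (-1.29, adjusted p = 2.5e-04), without the low-count filter (-1.28, adjusted p = 0.0028) and without WT replicate 1, and lay between -1.50 and -0.94 with single libraries left out. Vldlr in MPP3 against HSCs newly passed with all 24 libraries in the fit (1.26, adjusted p = 0.0419), and lay between 0.95 and 1.82 with single libraries left out. With single libraries left out, the value of Eya4 changed sign in young HSCs (-0.29 to 0.30, at 0.05 without Y-WT replicate 3 and 0.24 without Y-WT replicate 4), in MPP3 (-1.96 to 0.30) and between WT HSCs of both ages (-0.12 to 0.41, at -0.09 without Y-WT replicate 1), and was 0.014 in young HSCs without the low-count filter. Tmem215 changed sign in MPP3 against HSCs (-0.35 to 0.76, at -0.08 without Y-WT HSC replicate 1). The difference between MPP3 and young HSCs ranged from -0.32 to 0.99 for Tmem215 (-0.26 without Y-WT HSC replicate 2 and -0.08 without Y-TTPΔARE HSC replicate 1), from -0.42 to 0.60 for Vldlr and from -1.89 to 0.35 for Eya4. The cause of these shifts was not tested.

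The number of genes called, the background of the report, depended more on the method. By DESeq2 it was 304 in young HSCs, 764 in MPP3, 835 in middle-aged HSCs and 329 for the difference between cell types, against 6, 326, 298 and 113 by edgeR. Without the low-count filter it was 73 in young and 842 in middle-aged HSCs. With all 24 libraries in one fit it was 18, 1244, 53 and 261. With single libraries left out it ran from 0 to 12, from 185 to 347, from 68 to 299 and from 66 to 132. In middle-aged HSCs it was 95, 136 and 68 without M-TTPΔARE replicates 1, 2 and 3, in MPP3 it was 210 without WT replicate 2 and 185 without TTPΔARE replicate 1, and for the difference between cell types it was 66 without Y-WT HSC replicate 4. In young HSCs it was 12 without Y-WT replicate 1 and 2 without Y-TTPΔARE replicate 2, and it fell to 0 by edgeR without Y-WT replicate 2 or 4 or Y-TTPΔARE replicate 1 or 3, where 1400, 1611, 1315 and 1747 genes had an unadjusted p under 0.05.

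Libraries with the same number did not deviate together in all groups (correlations of deviations -0.21 to 0.29 in young HSCs, -0.20 to 0.38 in MPP3 and -0.11 to 0.09 in middle-aged HSCs), and 1 of 4, 1 of 4 and 0 of 3 TTPΔARE libraries correlated best with their own number. Between WT MPP3 and HSCs, 2 of 4 did, with 2 pairs over 0.1. Since not every pair was over 0.1 in any comparison, the libraries were taken to share only a number. With the replicate number as a block, 5 genes were called in young HSCs, 243 in MPP3 and 108 in middle-aged HSCs, Vldlr passed in MPP3 (-1.19, adjusted p = 0.0302) and in MPP3 against HSCs (1.499, adjusted p = 0.0088), and no other value of the 5 genes changed its call.

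Counts were low for Tmem215 in the young comparisons (0 to 194 per library) and for Ndnf (0 to 110), Nrsn2 (0 to 12) and Eya4 (0 to 101) in MPP3. The spread between libraries of a group goes beyond counting error, as for Tmem215 in Y-WT HSCs (8 to 133 counts), and its cause was not tested.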
